A study of Mus musculus with 4 samples.

Results

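Erythroid precursors were found in all 4 scRNA-seq libraries of bone stromal cells, although the preparation was meant to remove them. A barcode was taken as an erythroid precursor when it had at least 1000 UMIs, at least 500 detected genes and under 15% mitochondrial UMIs, held at least 3 UMIs of Hemgn, Ermap, Rhag and Klf1 with at least 2 of these 4 genes detected, had no Cdh5 UMI, and held under 20 Col2a1 and under 200 Bglap UMIs per 10000 UMIs. No limit was set on hemoglobin transcripts. Of 26185 barcodes that passed the quality filters, 1857 (7.09%) met the rule. These 4 markers chose the cells, so their levels are a description of the rule and not a finding. Cdh5, Col2a1 and Bglap were used to leave cells out, so the rule limits their levels as well.

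Libraries were made from C57BL/6 mice, 12 weeks old, whose femoral and tibial metaphyses were digested. The mutant libraries 1 and 2 are from Lats2iECKO animals, which carry loxP-flanked Lats2 and the Cdh5-driven, tamoxifen-inducible CreERT2 recombinase that is active in endothelial cells, and the control libraries 1 and 2 are from Cre-negative littermates. Per the methods of the study, both groups received tamoxifen (1 mg per day for 5 days) as juveniles, although the control samples are described as untreated in their labels. No doublet caller was run. Dissociated cells were depleted with a lineage antibody kit that includes Ter-119, and then of CD45+ and CD117+ cells, so that the shares given here are of what the depletion left and not of the marrow. The number of animals per library is not given, and p-values therefore measure the spread between libraries, which may be partly technical. No CreERT2 UMI was found in erythroid precursors of any library, while all retained barcodes together held 5.08 and 5.24 CPM (UMIs summed over the cells and scaled to the same total in every library) of it in mutants and 0.0829 and 0.0812 CPM in controls. Barcodes with at least 2 Cdh5 UMIs held 90.1 and 93.4 CPM of Lats2 in mutants, below the 127 and 115 CPM of controls.

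Red cell formation runs from Kit-positive progenitors through dividing erythroblasts to cells that fill with hemoglobin, stop dividing, clear their organelles and lose the nucleus. GATA1 and KLF1 are the transcription factors best known for switching on the red cell genes, including those for globins, heme synthesis and the membrane skeleton. Hemoglobin transcripts rise steeply along this path and in late cells make up most of the mRNA, so the share of UMIs from the adult globin genes Hba-a1, Hba-a2, Hbb-bs and Hbb-bt was used to order the cells.

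Promoters of 4 genes that the results turn on are shown because their windows hold a GATA motif: Alas2, which encodes the erythroid enzyme of the first step of heme synthesis, Epb42, which encodes the membrane skeleton protein 4.2, Trim10, a gene of terminal erythroid differentiation, and Hemgn (hemogen), a nuclear protein of erythroid cells and one of the markers of the rule. The sequences run from 250 bases before to 50 bases after the gene start and are from RefSeq on GRCm38.p6, an older build than the GRCm39 of the counts: Alas2 at chrX:150547167-150547466 (+ strand), Epb42 at chr2:121036828-121037127 (- strand), Trim10 at chr17:36869324-36869623 (+ strand), Hemgn at chr4:46404134-46404433 (- strand). Capitals mark AGATAA (or TTATCT, its reverse complement) and CCACNCCC (or GGGNGTGG), a motif of the KLF family.
Alas2: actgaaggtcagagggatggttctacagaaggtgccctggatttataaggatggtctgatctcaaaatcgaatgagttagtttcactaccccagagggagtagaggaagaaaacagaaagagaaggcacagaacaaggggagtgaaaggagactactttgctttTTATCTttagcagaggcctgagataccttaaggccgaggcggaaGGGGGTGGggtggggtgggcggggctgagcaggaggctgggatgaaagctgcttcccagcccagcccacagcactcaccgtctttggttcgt
Epb42: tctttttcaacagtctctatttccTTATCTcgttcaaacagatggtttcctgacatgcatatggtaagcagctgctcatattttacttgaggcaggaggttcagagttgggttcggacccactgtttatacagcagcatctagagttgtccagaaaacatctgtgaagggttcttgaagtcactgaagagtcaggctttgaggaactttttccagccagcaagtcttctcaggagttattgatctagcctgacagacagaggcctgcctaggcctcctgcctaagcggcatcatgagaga
Trim10: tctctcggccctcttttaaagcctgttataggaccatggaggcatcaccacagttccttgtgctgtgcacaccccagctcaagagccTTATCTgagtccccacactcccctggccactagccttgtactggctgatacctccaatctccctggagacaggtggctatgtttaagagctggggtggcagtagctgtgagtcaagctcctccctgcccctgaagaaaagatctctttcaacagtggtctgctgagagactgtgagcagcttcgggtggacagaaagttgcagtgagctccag
Hemgn: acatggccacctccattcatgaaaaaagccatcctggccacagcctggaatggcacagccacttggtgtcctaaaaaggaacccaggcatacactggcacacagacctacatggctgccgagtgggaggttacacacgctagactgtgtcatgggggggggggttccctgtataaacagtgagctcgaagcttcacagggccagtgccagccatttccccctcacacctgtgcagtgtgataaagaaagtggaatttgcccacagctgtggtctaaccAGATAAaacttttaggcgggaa
Of the 14 genes of a late list fixed for this report (genes of hemoglobin-rich cells), 8 have a RefSeq promoter, and 3 of these 8 (37.5%) held AGATAA, against 11.2% of all 32851 promoters of this length. The CCACNCCC motif was in 2 of the 8, against 17.6% of all promoters. Of 9 promoters of 7 genes of the early list, 0 held AGATAA and 2 held CCACNCCC. Of 306 promoters of the genes called higher in mutants 12.4% held AGATAA and 23.5% CCACNCCC, beside 6.44 and 22.5% of the promoters of all genes tested. A match of letters is not a bound site. Ermap, Klf1 and Rhag held neither AGATAA nor CCACNCCC in this window. Other forms of a GATA site were not searched, and these windows do hold TTATCA, a related sequence that was not counted.

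Erythroid precursors made up 6.397 to 7.89% of the retained barcodes of each library. Mutant libraries held 372 of 5540 barcodes (6.71%, exact Clopper-Pearson 95% interval 6.07 to 7.41) and 405 of 6331 (6.397%), and control libraries held 567 of 7189 (7.89%) and 513 of 7125 (7.20%). Both mutant libraries lay below both controls, by 0.988 percentage points on average (0.644 without control library 1), with an exact permutation p of 0.333 (2-sided), which is the smallest that 2 against 2 libraries allow. Intervals cover counting error only. The mitochondrial limit weighed unequally on the groups: between 15 and 25% mitochondrial UMIs another 67 and 87 barcodes of mutants and 211 and 242 of controls met the marker rule, and with a limit of 25% the difference was 2.65 percentage points, again with mutants lower. Library totals were 69636600 and 78953446 UMIs in mutants and 83453507 and 85899079 in controls, and median UMIs per retained barcode ranged from 7428 to 8113.5. No barcode was an erythroid precursor in more than 1 library, and 0 to 4 barcodes per pair of libraries were one in 1 library and another kind of retained barcode in the other.

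The rule found cells with the other transcripts of the lineage. Car2, a red cell carbonic anhydrase, was detected in 94.2 to 95.9% of the cells of each library and in 9.75 to 16.4% of the barcodes that were neither erythroid nor Ptprc-positive. Ctse, the aspartic protease cathepsin E, was detected in 75.8 to 80.9% against 2.64 to 3.69%, and Car1, another carbonic anhydrase, in 54.3 and 46.4% of mutant and 74.96 and 75.05% of control cells against 6.13 to 8.14%. The antigens of the depletion differed in how often they were detected: Ptprc (CD45) was found in 1.48 to 3.23% of the cells and Kit (CD117) in 8.64 to 12.3%. At the edge of the rule, 43 to 68 cells per library had only 3 marker UMIs, with median hemoglobin shares of 0.231 to 0.323%, and 96 to 124 barcodes per library had 2, with 0.157 to 0.250%.

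Transcripts of other lineages ranged from 0 to a summed 1504 CPM per list and library. Cdh5 was 0 by the rule, and Vpreb3 of B cells, Ngp of neutrophils and C1qa, C1qc and Cd5l of macrophages were at 0 in all 4 libraries. The neutrophil list summed to 0.373 and 0 CPM in mutants and 0.657 and 2.78 CPM in controls, the macrophage list to 21.8 and 25.2 against 35.8 and 66.4 CPM, the B cell list to 40.6 and 55.8 against 99.3 and 121 CPM, and the mast cell and basophil list to 7.83 and 112 against 6.90 and 155 CPM. The megakaryocyte list summed to 666 and 21.3 CPM in mutants and 115 and 69.8 CPM in controls, and 1 cell of mutant library 1 alone held 2286 of the 2382.5 UMIs of its library. Among stromal lists the osteoblast list summed to 410 and 359 CPM in mutants against 1107 and 805 CPM, the bone marrow stromal list 223 and 303 against 612 and 1014 CPM, and the chondrocyte list 1504 and 295 against 327 and 208 CPM. Smooth muscle markers were 80.5 and 254 CPM against 73.8 and 63.2 CPM, and the endothelial and fibroblast lists ranged from 5.87 to 29.7 and from 3.68 to 25.5 CPM. Cells with over 1% of UMIs from the stromal lists numbered 6, 9, 24 and 33 in mutants 1 and 2 and controls 1 and 2, and without them 292 genes were higher and 13 lower in mutants in the test across genes. Leaving out cells with UMIs of other blood lineages is described with the Peak1-poor cells.

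The hemoglobin content of the cells differed widely between genotypes. Cells with at least 5% hemoglobin UMIs, called hemoglobin-rich here, were 171 of 372 (46.0%, exact interval 40.8 to 51.2) and 191 of 405 (47.2%) in mutant libraries and 63 of 567 (11.1%, 8.64 to 14.0) and 65 of 513 (12.7%) in control libraries. The groups did not overlap. Near this limit, between 3 and 7%, were 7 and 8 mutant and 49 and 40 control cells. At least 50% of the UMIs were hemoglobin in 29.3 and 31.4% of mutant cells and in 3.53 and 7.60% of control cells. The median share was 2.01 and 2.31% against 0.831 and 0.853% (exact permutation p = 0.333), but since the shares fell into a low and a high group this median describes few cells: with at least 6 marker UMIs and 3 of the 4 markers the means of the medians were 34.4% in mutants and 1.10% in controls, and with at least 800 detected genes per cell they were 1.22 and 0.789%. Barcodes that were not erythroid precursors had median hemoglobin shares of 0.0565 and 0.0686% against 0.0176 and 0.0187%, and near-empty barcodes of 10 to 100 UMIs held 4.38 and 4.56% against 1.04 and 1.15%, so that free hemoglobin RNA was higher in the mutant libraries as well. The part of free RNA in the hemoglobin-poor cells was not tested cell by cell.

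The hemoglobin-poor cells could be divided by the transcripts of 1 gene. Peak1, a gene for a pseudokinase of the cytoskeleton (chr9:56108410-56325566, - strand, GRCm39), whose counts include introns, took up to 44.3% of the UMIs of a cell. A split at 1% of UMIs, chosen after the values were seen, gave Peak1-poor and Peak1-rich hemoglobin-poor cells. The Peak1-rich cells were shallow, with a median of 5033.5 and 4731 UMIs and 2002 and 1942 genes in mutants and 4227.5 and 4753 UMIs and 2004 and 2100 genes in controls, and had median mitochondrial shares of 9.51 to 10.6%. The Peak1-poor cells were deep, with 13506 and 16367 UMIs and 4878 and 4941 genes in mutants and 12107.5 and 13799 UMIs and 4240.5 and 4533 genes in controls, and their mitochondrial shares were 3.76 and 4.07% against 7.29 and 6.23%. Malat1, a transcript retained in the nucleus, was at 12003 to 15824 CPM in Peak1-rich and at 3795 to 5906 CPM in Peak1-poor cells, and Npm1, a nucleolar gene of growing cells, at 586 to 754 CPM against 1288 to 2482 CPM. Where in the gene the Peak1 reads lie is not in the counts, and what sets the Peak1-rich cells apart was not tested.

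**Figure D1:**
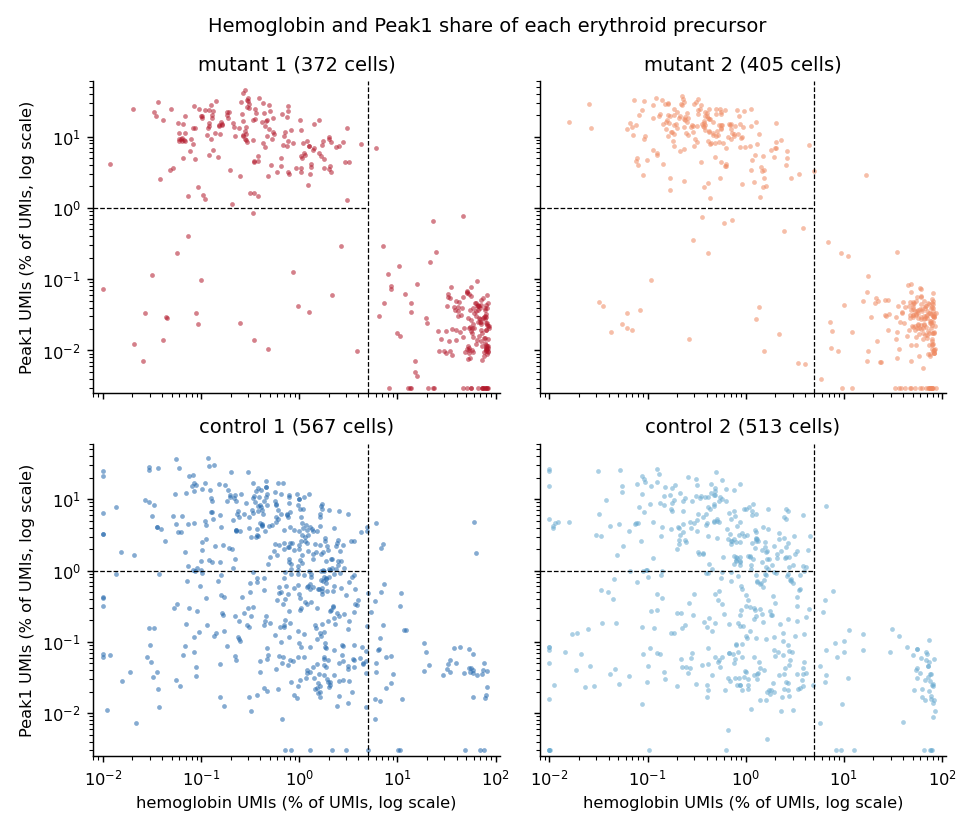
Each point is an erythroid precursor, with the percent of its UMIs from the 4 adult globin genes (x, log scale) and from Peak1 (y, log scale), 1 panel per library. Values under 0.01% hemoglobin or 0.003% Peak1 are drawn at these limits, and dashed lines mark the splits at 5% and 1%. Mutant cells lie in a Peak1-rich and a hemoglobin-rich cloud, while in controls about as many cells lie in the lower left region as in the upper left one.

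The Peak1-poor, hemoglobin-poor cells were fewer in the mutant libraries. They numbered 23 in each mutant library and 262 and 235 in the control libraries, which is 0.415% (exact interval 0.263 to 0.622) and 0.363% of the retained barcodes against 3.64% (3.22 to 4.10) and 3.30%. The means were 0.389% ± 0.0367 (SD, n = 2) and 3.47% ± 0.245, an 8.92-fold higher share in controls (exact permutation p = 0.333, the smallest possible). Peak1-rich cells were 3.21 and 3.02% against 3.37 and 2.99%, with overlapping groups (difference -0.0629 percentage points, exact permutation p of 1). This difference changed sign with the Peak1 split at 2% (0.494), with the hemoglobin split at 2% (0.0683) and without mutant library 2 (0.0351) or control library 1 (0.126), and with a mitochondrial limit of 25% it was -1.03. Hemoglobin-rich cells were 3.09 and 3.02% against 0.876 and 0.912%, a 3.41-fold higher share in mutants (exact permutation p = 0.333). With the hemoglobin split at 2% the mean shares were 3.32% in mutants and 2.00% in controls, and with the split at 10% they were 2.91 and 0.629%. With at least 6 marker UMIs and 3 of the 4 markers hemoglobin-rich cells were 2.49 and 2.48% against 0.598 and 0.575%. Peak1-rich cells were then 1.39 and 1.11% against 1.35 and 1.25%. Control cells were often near the Peak1 split, with 54 and 39 Peak1-poor and 48 and 49 Peak1-rich cells between 0.5 and 2% against 1 and 4 and 9 and 5 in mutants, and with splits at 0.5 or 2% the mean share of Peak1-poor cells was 0.349 or 0.510% in mutants and 2.82 or 4.15% in controls. Among barcodes with 15 to 25% mitochondrial UMIs the rule found another 0 and 4 Peak1-poor cells in mutants and 54 and 68 in controls. Ptprc-positive leukocytes, with at least 2 Ptprc UMIs, moved in the same direction as the Peak1-poor cells, with 14 and 11 barcodes in mutants and 58 and 49 in controls. How completely each library was depleted is not known, and its part in these shares was not tested.

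**Figure D2:**
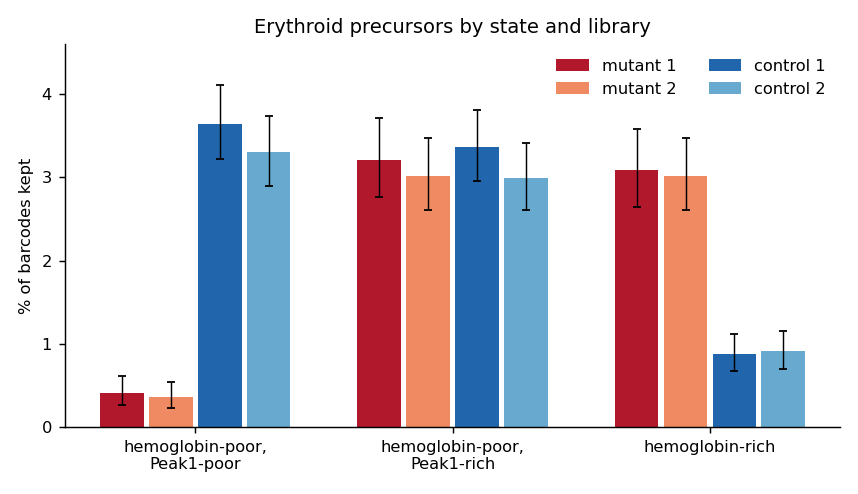
Bars give each kind of erythroid precursor as a percent of the retained barcodes of its library, and error bars are exact 95% intervals of counting error. The 2 mutant libraries are at 0.415 and 0.363% for hemoglobin-poor, Peak1-poor cells, below both controls (3.64 and 3.30%), and above both controls for hemoglobin-rich cells.

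From Peak1-poor cells to cells above 75% hemoglobin the level of the early list was lower and that of the late list higher in all 4 libraries. Since the cells were ordered by their own transcripts, these levels are a description with no test. Levels are UMIs per 10000 UMIs outside the hemoglobin genes. The early list (Gata2, Kit, Myc, Myb, Cd34 and 5 genes of ribosome production and growth) was at 60.8 and 46.5 in mutant and 37.2 and 40.6 in control Peak1-poor cells, at 17.0 to 21.8 in cells with 5 to 25% hemoglobin and at 2.21 to 3.12 above 75%, with a step upward in control library 1 from 12.2 at 25 to 50% to 18.6 at 50 to 75%. The late list rose from 7.49 to 14.3 in Peak1-poor cells to 47.4 to 60.5, then to 97.6 to 119 at 25 to 50%, to 216 to 312 at 50 to 75% and to 620 to 649 above 75%. Alas2 rose in this order from 0.157 to 0.418 up to 62.3 to 84.8, while Hemgn peaked at 50 to 75% hemoglobin (19.9 to 28.2) and was back at 4.04 to 8.23 above 75%. Myb, a transcription factor of proliferating progenitors, was at 0.593 to 1.98 in Peak1-poor cells and at 0 in every library above 75%. Detected genes fell to medians of 657 to 751 and the mitochondrial share to 0.673 to 0.914% in the last range.

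Genes of the cell cycle were highest at intermediate hemoglobin shares. The S phase list, with the Mcm genes of replication licensing, was at 56.7 to 63.3 in cells with 5 to 25% hemoglobin, at 79.7 and 78.1 in mutants and 47.7 and 25.4 in controls at 25 to 50%, and at 1.84 to 3.12 above 75%. The G2/M list, with Mki67, Top2a and the mitotic cyclins, was highest at 50 to 75% hemoglobin, at 171 and 187 in mutants and 141 and 107 in controls, and fell to 25.97 to 38.1 above 75%. The control values at 25 to 50% rest on 10 and 5 cells, and those above 75% on 7 and 14.

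**Figure D3:**
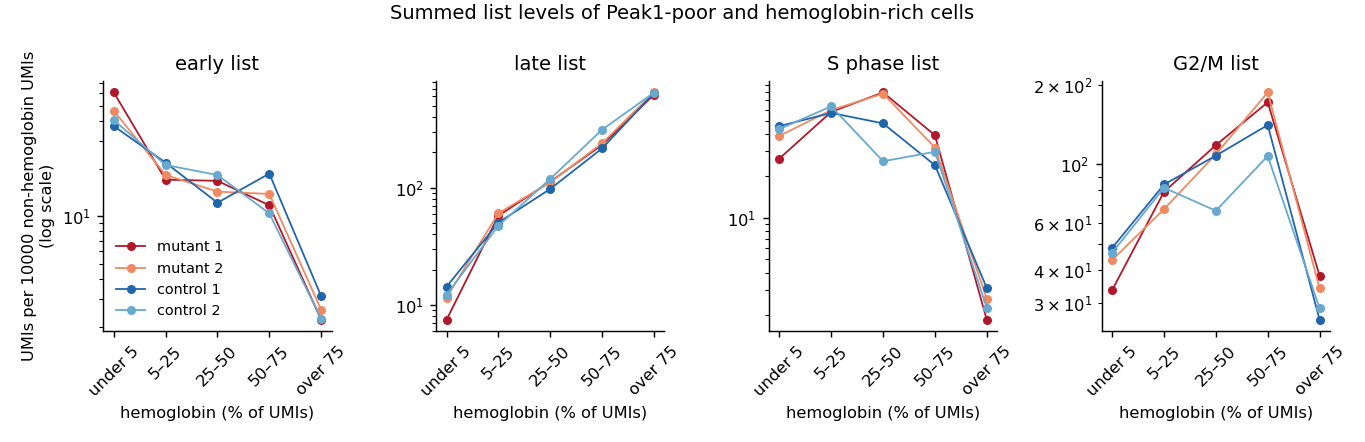
Summed UMIs of 4 gene lists per 10000 UMIs outside the hemoglobin genes (y, log scale) in cells grouped by hemoglobin share (x); the leftmost group holds the Peak1-poor cells and Peak1-rich cells are not drawn. Each line is a library. The early list falls to 2.21 to 3.12 and the late list rises to 620 to 649 in the last range in all 4 libraries.

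Over all erythroid precursors of a library, the ratio of the late list (14 genes) to the early list (10 genes) was higher in both mutant libraries than in both controls. The late list summed to 61.0 and 74.0 UMIs per 10000 UMIs outside hemoglobin in mutants and to 18.8 and 19.8 in controls, while the early list was at 34.2 and 27.7 against 33.7 and 35.9. The log2 ratio of late to early was 0.84 and 1.42 against -0.84 and -0.86 (exact permutation p = 0.333). The log2 level of the S phase list was 5.03 and 5.16 against 5.40 and 5.35, and that of the G2/M list 5.86 and 6.01 against 5.69 and 5.59, both with groups that did not overlap and the same p. With at least 6 marker UMIs and 3 of the 4 markers the difference between the means was -0.14 for S phase, against -0.28 before, and 0.49 for G2/M, against 0.30. With each cell thinned to 1000 UMIs outside hemoglobin, which left out 2, 1, 1 and 0 cells, the log2 ratio of late to early was 2.73 and 3.04 against 0.47 and 0.94, so that its sign turned in controls while the order of the groups did not change.

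The test across genes asked which transcripts differed when the erythroid precursors of each library were summed. Of 5455 genes tested with edgeR, 280 were called higher in mutants (adjusted p at most 0.05 and at least 2-fold; 5.13% of the genes tested) and 15 lower (0.275%), and by CPM 278 of the 280 lay above both controls in both mutant libraries and all 15 below. Over all genes tested 7.68% lay above and 84.9% below in this way, so that the count for the falls is no more than the background of this scale. Fold changes are on the TMM scale. This scale differs from totals of UMIs: scaled to all UMIs the median log2 fold change over all genes is -0.66 and not -0.03 and the split of calls is 113 higher (2.07% of the genes tested) and 716 lower (13.1%), and scaled to UMIs outside hemoglobin it is 202 and 46. All 280 genes stayed above 0 and all 15 below 0 on these 3 scales. Without mutant library 2, 24 genes were called lower. CPM levels are scaled to all UMIs and can therefore be lower in mutants where the fold change is near or just above 0.

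Globin genes rose in mutants, and so did part of the heme synthesis genes. All 5 globin genes that could be tested were called, led by Hbb-bs, the major adult beta globin (log2 fold change 3.44 ± 0.12 SE, edgeR adjusted p = 8.739e-15), which made up 137000 and 156800 CPM in mutants and 17480 and 23410 CPM in controls. Embryonic globins were near 0 in every library, with at most 1.12 CPM of Hbb-y, and Ahsp was not analysed here. Alpha globin UMIs per beta globin UMI were 0.456 and 0.439 in mutants against 0.5999 and 0.572 in controls, and within hemoglobin-rich cells 0.453 and 0.437 against 0.561 and 0.542. Near-empty barcodes showed 0.418 and 0.403 against 0.542 and 0.551, so that the ratio differed in the free RNA as well. Hba-a1 and Hba-a2, and Hbb-bs and Hbb-bt, are nearly identical pairs whose shared reads were divided by estimation, and the split within each pair is uncertain. Of 13 heme synthesis genes tested 4 were called higher and 0 lower, with a list median of 0.65 beside -0.03 over all genes. Scaled to all UMIs only Alas2 of this list was called, and the median was 0.02. Alas2 was at 506 and 587 CPM in mutants and 97.3 and 119 CPM in controls (log2 fold change 2.94 ± 0.13, adjusted p = 7.229e-13), followed by Fech, which inserts the iron (1.501), and Slc25a37, the mitochondrial iron importer (1.498). Urod and Uros of the same pathway were at 0.83 and 0.65 and missed the 2-fold limit.

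All 13 late genes that could be tested were called higher, with a median log2 fold change of 1.94, and 9 of the 13 were when scaled to all UMIs. Slc4a1, the anion exchanger of the red cell membrane, was at 669 and 767 CPM against 227 and 201 (2.35 ± 0.12, adjusted p = 4.862e-12). Bpgm, which makes the 2,3-bisphosphoglycerate that lowers the oxygen affinity of hemoglobin, was at 284 and 398 against 55.4 and 79.7 CPM (2.94 ± 0.17). Of the organelle clearance list 11 of 12 genes rose, among them Tent5c (2.375), Ube2l6 (2.35) and the nuclear exportin Xpo7 (2.28). Bnip3l, the receptor for removal of mitochondria by autophagy, rose too (1.94). These genes are also in the late list, and the name of the list does not give the role of each gene. Of 22 membrane skeleton and surface genes tested 9 rose and 0 fell, among them Slc4a1, Tmod1 (1.79) and Epb42 (1.49). Scaled to all UMIs 8 of the organelle and 3 of the membrane genes were called. Several lists share genes, so these counts are not independent, and the lists were chosen with earlier results of these data known.

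Of the list of oxidant defence and red cell enzymes 5 of 11 were called higher: Bpgm, which is also in the late list and does not act on oxidants, and Cat (1.63), Hagh (1.58), Gpx1 (1.47) and Prdx2 (1.13). Scaled to all UMIs 1 of the 11 was higher and 2 lower, beside 2.07 and 13.1% of all genes. Scaled to UMIs outside hemoglobin 4 were higher and 2 lower, beside 202 and 46 of all 5455 genes tested. In erythropoietin signaling 2 of 9 were called, the survival gene Bcl2l1 (2.03) and the kinase gene Pim1 (1.96). Epor itself was at 82.2 and 94.6 CPM against 94.2 and 100 CPM (0.46, below the 2-fold limit). Scaled to all UMIs 2 of the 9 were higher and 2 lower, beside 2.07 and 13.1% of all genes. Of 13 genes of iron handling only Ncoa4, the receptor for ferritin breakdown, was called (2.20), while scaled to all UMIs 1 was higher and 4 lower with a list median of -0.85, beside the 13.1% of all genes lower on that scale. Tfrc, the transferrin receptor, was at 374 and 393 against 380 and 337 CPM. In the G2/M list 2 of 20 rose, Ube2c (1.32) and Nusap1 (1.04), beside 5.13% of all genes. Scaled to all UMIs the median of this list turned from 0.43 to -0.20 and 0 were called. In the S phase list 0 of 19 were called by edgeR or DESeq2, 9 having an unadjusted p under 0.05, and scaled to all UMIs 3 were called lower, a share close to the 13.1% of all genes on that scale, with Mcm2 at 99.8 and 102 against 188 and 193 CPM.

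Erythroid transcription factors, early genes and stress genes held 0 calls. Of 16 transcription factor genes 0 were called by edgeR or DESeq2, although 10 had an unadjusted p under 0.05, and scaled to all UMIs 2 were called lower, again near the 13.1% of all genes. Gata1 was at 71.3 and 72.5 CPM in mutants and 122 and 116 CPM in controls. This list includes Klf1 and the membrane list includes Rhag and Ermap, which the rule used to choose the cells and whose values are a description. Of the 6 early genes tested 0 were called by edgeR or DESeq2 (2 with an unadjusted p under 0.05), with Npm1 at 742 and 515 against 1048 and 1178 CPM, and of 7 genes of the stress and HIF response 0 were called by either tool (5 with an unadjusted p under 0.05), while scaled to all UMIs 3 were lower and scaled to UMIs outside hemoglobin 1 was. The markers of the rule stayed within 2-fold, at 0.97 for Hemgn, 0.82 for Rhag, 0.53 for Ermap and 0.39 for Klf1 on the TMM scale, and at 0.34, 0.19, -0.09 and -0.24 when scaled to all UMIs, so that Ermap and Klf1 changed sign. Ctse was at 0.90 and Car1 at -0.26, and Car2 at 0.55 turned to -0.08 when scaled to all UMIs.

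Across all genes whose libraries did not overlap between genotypes, the 10 largest rises were the globins Hbb-bs, Hbb-bt, Hba-a2, Hbq1b and Hba-a1, Cdkn2d (3.085), which encodes the cell cycle inhibitor p19INK4d, the histone gene H2bu2 (3.01), Alas2, Bpgm and Mgp. Mgp, the matrix Gla protein of chondrocytes and vessels, was at 2666 and 467 CPM in mutants and 270 and 284 CPM in controls and at 12240 and 13450 against 7866 and 7134 CPM in near-empty barcodes, and its log2 fold change of 3.07 ranged from 1.42 to 3.84 when 1 library at a time was left out. Prg4, which encodes lubricin of the joint surface, had a larger fitted change (3.49) but overlapped between the genotypes, at 1279 and 82.4 CPM in mutants and 138 and 42.1 CPM in controls, and is named after its values were seen. The 10 largest falls by the same rule were led by Sqor, an enzyme of hydrogen sulfide oxidation (6.99 and 9.63 against 40.3 and 38.9 CPM, -1.65 ± 0.19, adjusted p = 7.533e-07), and Slc39a8, a transporter of zinc and manganese (11.2 and 11.9 against 51.3 and 44.6 CPM, -1.46 ± 0.18). Slc2a3 (-1.37), Aldh1a7 (-1.28), Lrrc20 (-1.22), Gatm (-1.15) and the chaperone gene Hsph1 (-1.05) followed. In near-empty barcodes 20 of the 280 genes called higher were also at least 2-fold higher in mutants, beside 0.678% of all genes tested. Alas2 and Bpgm were among these 20 (log2 difference 1.58 each). Of the 15 genes called lower 7 were at least 2-fold lower there in mutants, beside 4.67% of all genes tested. Among them were Slc2a3 (log2 difference -1.59), Aldh1a7 (-1.52), Hsph1 (-1.31) and Gatm (-1.205), while Sqor was at 14.96 and 17.7 against 17.0 and 16.1 CPM there and Slc39a8 at 11.7 and 7.95 against 11.2 and 12.5 CPM. Ibsp (-1.33), Cxcl12 (-1.12) and Igfbp4 (-1.02) are stromal genes, and in near-empty barcodes Cxcl12 was lower in mutants (1172 and 1381 against 3249 and 3016 CPM) and Ibsp was not (2029 and 2496 against 1792 and 2139 CPM). Without control library 1 the value of Slc2a3 was -0.52, without mutant library 1 that of Ibsp -0.77 and of Igfbp4 -0.60, without control library 2 that of Cxcl12 -0.69 and of Igfbp4 -0.54, without mutant library 1 that of Cxcl12 -0.91 and of Hsph1 -0.999, and without mutant library 2 that of Lrrc20 -0.97, each below the 2-fold limit. DESeq2 did not call Slc2a3, Ibsp, Cxcl12 or Igfbp4 (adjusted p of 0.193, 0.186, 0.0559 and 0.282).

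In an equal mix of cells, genes of the early, transcription factor and osteoblast lists were called, and none of the globin, heme, late, membrane or organelle lists by edgeR. When the cells of each library were weighted to the same mix of 4 states (Peak1-poor, Peak1-rich, 5 to 50% and over 50% hemoglobin), which are set by the hemoglobin share so that the globin level is held by the weighting itself, 45 genes were called higher (0.825%) and 23 lower (0.422%), and of the 280 genes called higher before, 186 kept their direction and 12 stayed called. Of the 13 late genes 0 were called in this mix by edgeR (DESeq2 was not run on it), with a median of -0.07, and 1293 of all genes had an unadjusted p under 0.05. Of 6 early genes tested 1 was called higher (list median 0.52) and of 16 transcription factor genes 1 was, which is Myb (1.35) in both. Of the osteoblast list 4 of 4 genes tested were called lower (median -1.61), among them Bglap, whose level the rule limits. In this mix the 23 Peak1-poor cells of each mutant library, 6.18 and 5.68% of its cells, are weighted to 25.97% of the cells, so that these calls are not independent of the comparison within Peak1-poor cells. The cells over 50% hemoglobin, 20 and 39 in controls (3.53 and 7.60% of their cells), are weighted to 17.95%. The values of late genes in this mix thus rest on few control cells. Alas2 then differed by 0.13 (edgeR adjusted p = 0.618) and Hbb-bs by 0.30 (adjusted p = 0.101), while Cdkn2d was at 0.98, just under the 2-fold limit. The 15 falls kept their direction, and 7 stayed called, among them Slc39a8 (-1.21) and Lrrc20 (-1.14). Sqor was at -1.14 with an adjusted p of 0.0855.

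Within hemoglobin-rich cells 2 of 13 late genes were called higher in mutants. Of 3323 genes tested 159 were called higher (4.78%) and 126 lower (3.79%), and 116 of the 159 were also among the 280. Mutant cells of this kind had median hemoglobin shares of 57.5 and 60.4%, against 19.6 and 56.1% in controls, and the control sums rest on 63 and 65 cells. Hemoglobin made up 51.1 and 52.8% of the summed UMIs in mutants and 27.0 and 39.5% in controls. Between 5 and 25% were 29 of 171 and 25 of 191 mutant and 33 of 63 and 21 of 65 control cells. The sums thus compare different mixes of hemoglobin-rich cells, and the part of this mix in the calls was not tested. Without control library 2, 245 genes were called higher. The late genes called were Bnip3l (1.25) and Isca1 (1.18). All 13 were above 0, 12 had an unadjusted p under 0.05, DESeq2 called 3, and the median was 0.81 beside -0.02 over all genes. Icam4 (1.13) was among the genes that rose in the membrane list, and Gabarapl2 (1.13) and Map1lc3b (1.04) of autophagy rose too. Globins also differed, but the hemoglobin share defined these cells.

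Among the falls in hemoglobin-rich cells were 2 of 14 transcription factor genes and 2 of 10 iron genes tested, beside 3.79% of all genes. Bcl11a, the repressor of the embryonic and fetal globin genes, was at 7.94 and 7.83 CPM in mutants and 75.9 and 70.0 CPM in controls (-2.68 ± 0.26, adjusted p = 0.000678), and Ldb1, the cofactor of GATA1 and TAL1 complexes, at 11.9 and 11.5 against 53.3 and 45.6 CPM (-1.55). Tfr2, the second transferrin receptor (-1.89), and Steap3, the reductase of endosomal iron (-1.32), fell in the iron list. The 5 largest falls were Pnp2 (-5.085), Bcl11a, Hsph1 (-2.34), Nhp2 (-2.14) and Hspe1 (-1.96), of which Pnp2 had 0 and 1.04 CPM in mutants against 35.5 and 26.03 CPM. A gene was tested if enough cells of either genotype held a count, and both were not required. A fall could thus enter through the few control cells alone, and the part of this filter in the falls named here was not tested. Near-empty barcodes of mutants also held less Bcl11a (10.3 and 8.91 against 29.7 and 27.8 CPM). The log2 difference there was -2.41 for Pnp2, -1.31 for Hsph1, -0.65 for Nhp2 and -0.43 for Hspe1. The 5 largest rises among genes whose libraries did not overlap between genotypes were Mgp (3.63), Eif3j2 (3.58), Ccn2 (3.54), Snorc (2.93) and Junb (2.67). Prg4 had a larger fitted change (5.27) but overlapped. Of the chondrocyte list 2 of 2 genes tested, Prg4 and Col2a1, were called higher by edgeR, and DESeq2 called 1. The rule left out cells high in Col2a1 or Bglap, so the values of these genes are a description. Of the osteoblast list 2 of 4, Bglap and Bglap2, were called lower. Mgp was at 4323 and 570 CPM in mutants and 220 and 330.2 CPM in controls, and its log2 fold change was 1.56 without mutant library 1. That of Junb ranged from 2.13 to 3.73 and that of Pnp2 from -7.68 to -4.22 when 1 library was left out. Of the rises, Mgp, Ccn2, Snorc and Junb were all higher in near-empty barcodes of mutants as well, Ccn2 at 1489 and 1437 against 619 and 616 CPM and Junb at 1663 and 1627 against 784 and 771 CPM. Of the 159 genes called higher 16 were at least 2-fold higher in near-empty barcodes of mutants, beside 0.873% of all genes tested. The part of free RNA in these rises was not tested gene by gene.

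In the few Peak1-poor mutant cells Myb was higher and genes of the membrane skeleton were lower. Of 7962 genes tested 250 were called higher (3.14%) and 118 lower (1.48%), with 23 cells in each mutant library. Median hemoglobin shares of these cells were 0.0933 and 0.357% in mutants and 1.01 and 0.869% in controls. The sums can thus compare different mixes of Peak1-poor cells, and the part of this mix in the calls was not tested. Myb was at 197 and 160 CPM in mutants and 58.5 and 79.0 CPM in controls (1.35 ± 0.20, edgeR adjusted p = 0.00524) and Pim1 at 78.3 and 90.6 against 37.4 and 31.3 CPM (1.26). Of 22 membrane genes 4 fell and 0 rose, among them Sptb (-1.34) and Ank1 (-1.11), which encode proteins of the membrane skeleton, and Kel (-1.18). Trim10 (-1.18) of the late list, Sod1 (-1.06) and Uhrf1 (-1.03) fell as well. Kit was detected in 43.5 and 26.1% of these cells in mutants and in 16.4 and 21.7% in controls. The log2 ratio of late to early was -3.02 and -2.01 against -1.38 and -1.73.

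Other blood cell transcripts were also present in Peak1-poor cells. Ptprc was detected in 5 and 3 of the 23 mutant cells and in 8 of 262 and 14 of 235 control cells. The 5 largest rises, Tnfrsf12a (3.715), Coro1a (3.54), Neurl3 (3.39), Wdfy4 (3.28) and Rel (3.16), include Coro1a, an actin regulator of white cells, at 86.1 and 21.7 against 1.44 and 7.88 CPM, whose log2 fold change ranged from 2.20 to 5.18 when 1 library was left out. Tnfrsf12a was at 14.1 and 15.8 against 1.44 and 0.695 CPM and Neurl3 at 29.75 and 23.6 against 1.92 and 3.01 CPM. Wdfy4 was at 21.9 and 15.8 against 1.2 and 2.55 CPM and Rel at 36.01 and 33.5 against 3.12 and 4.4 CPM. These fold changes rest on low control levels. A gene was tested if it had a count in 20% or more of the cells of either genotype. A rise could thus enter through the few mutant cells alone, and the part of this filter in the 250 rises was not tested. After leaving out cells with a Ptprc UMI or at least 5 UMIs of the megakaryocyte, mast cell or macrophage lists, 17 and 19 mutant and 242 and 201 control cells stayed, with 302 genes higher and 154 lower. Coro1a and Wdfy4 were then no longer tested. With all these cells, the call of Wdfy4 was lost without mutant library 1 (3.04) and that of Tnfrsf12a without control library 2 (3.29). The falls included Col1a1 (-3.05), Ibsp (-2.84), Bglap2 (-2.80) and Dcn (-2.78), genes of bone-forming and fibroblastic cells, beside the histone gene H2ac23 (-3.80, and -9.20 without mutant library 1), and in near-empty barcodes the log2 difference was -1.85 for Col1a1 and -1.30 for Bglap2, but -0.12 for Dcn, 0.20 for Ibsp and 0.18 for H2ac23. Without mutant library 2, 449 genes were called higher and 477 lower.

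Few genes were called between the Peak1-rich cells of the genotypes. Of 3435 genes tested 23 were called higher (0.67%) and 9 lower (0.262%), and in the late, heme, membrane, transcription factor and cell cycle lists 0 genes were called by edgeR, and 0 of them by DESeq2, beside 749 genes of all kinds with an unadjusted p under 0.05. DESeq2 called 8 genes higher and 4 lower. The unadjusted edgeR p was under 0.05 for 10 of 19 G2/M, 8 of 18 S phase and 8 of 18 membrane genes. In these lists 16, 15 and 17 genes were below 0 and 3, 3 and 1 above. In the unit of the hemoglobin ranges the G2/M list was at 32.4 and 36.1 in mutants and 47.7 and 43.9 in controls. The S phase list was at 20.2 and 22.4 against 28.6 and 28.7. The log2 ratio of late to early was -2.09 and -1.79 against -1.45 and -1.17. These levels and the ratio carry no test. Without mutant library 1, mutant library 2 or control library 1, edgeR called 22, 21 or 23 genes lower. The 5 largest rises were Prg4 (3.54), Cytl1 (2.90), Ccnb1ip1 (2.50), Eif3j2 (2.18) and Ccn2 (2.12), of which Prg4, Cytl1 and Ccn2 were also higher in near-empty barcodes of mutants. Prg4 was at 1253 and 190 CPM in mutants and 48.6 and 84.7 CPM in controls, its log2 fold change was 1.62 without mutant library 1, and DESeq2 did not call it (adjusted p = 0.0737). Those of Cytl1 and Ccn2 ranged from 1.96 to 3.45 and from 1.54 to 2.97 when 1 library was left out. Of the 5 rises DESeq2 called Cytl1 (adjusted p = 0.00523) and gave no adjusted p for Ccnb1ip1, Eif3j2 and Ccn2. The falls were led by Ibsp (-1.97), Cxcl12 (-1.64) and Cmss1 (2485 and 2700 against 7667 and 6837 CPM, -1.38 ± 0.09), of which Cxcl12 was at -0.92 without control library 2 and was not called by DESeq2 (adjusted p = 0.347). Median Peak1 shares were 10.0 and 12.9% in mutants and 4.34 and 4.21% in controls. Peak1 defined these cells and carries no test.

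**Figure D4:**
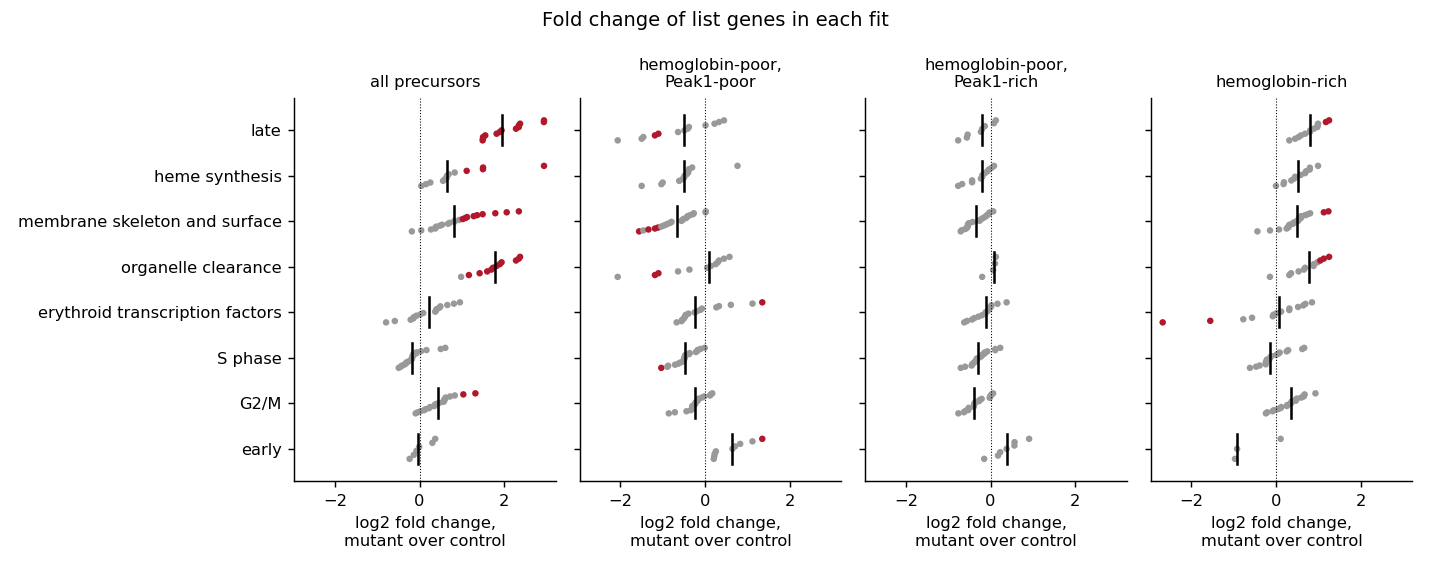
Each point is a gene of the list at left, with its log2 fold change (x, mutant over control, edgeR, TMM scale) in the sums of all erythroid precursors and of each kind of cell; red points passed the adjusted p of 0.05 and 2-fold, grey points did not, and black bars are medians. The late list has a median of 1.94 over all precursors, 0.81 in hemoglobin-rich, -0.49 in Peak1-poor and -0.21 in Peak1-rich cells.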

How the data were processed

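Stromal cells from the metaphysis of 2 mutant and 2 control libraries were profiled with 10x 3′ scRNA-seq. Per the labels and methods, the authors trimmed reads with cutadapt 3.5 and counted them with STARsolo 2.7.10a on mm39, over exons and introns, and divided reads of several genes by estimation. The deposited matrices therefore hold expected counts (UMIs), of which 9.09 to 9.95% of the entries were not whole. They list 53703 features, and no authors' cell annotation was used.

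Expected counts were summed per library over the erythroid precursors and rounded. edgeR 4.0.16 (quasi-likelihood test, TMM, Benjamini-Hochberg adjustment, R 4.3.3) was fitted to genes that passed filterByExpr and had a count in 20% or more of the cells of mutants or of controls, and a call needed an adjusted p of at most 0.05 and at least 2-fold. Shares and indices were compared over libraries with 2-sided exact permutation tests. DESeq2 1.42.0, other scalings, filters, cell mixes, free RNA subtraction, a replicate block and leaving out each library were alternatives. The fits were tested on simulated data. The members and gene lists were chosen with earlier results of these data known, and the splits at 5% hemoglobin and 1% Peak1 and the fits within states were added after the values were seen. Genes named were the markers, the called genes of each list (up to 4 by size, or values of its most abundant genes), the 10 largest protein-coding rises and falls, and 5 for each state. Other genes named within lists were chosen after their values were seen. The labels' replicate numbers were not used to pair the libraries in the main fits. Some genes that this rule would name are not reported here.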

Additional observations from a re-analysis of the deposited data

Results flagged for a closer look

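Barcodes with at least 1000 UMIs, under 500 detected genes and over 50% hemoglobin UMIs lie outside the rule and were not used. They made up 6.32 and 7.36% of the barcodes with at least 1000 UMIs in mutant libraries (428 and 584 barcodes) and 2.47 and 2.24% in control libraries (208 and 189). What they are was not tested.

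Barcodes outside the rule with at least 1% Peak1 UMIs made up 5.79 and 5.87% of the other retained barcodes in mutant libraries and 3.59 and 3.31% in control libraries. Of these 299, 348, 238 and 219 barcodes, 187, 165, 166 and 155 held at least 1 UMI of the 4 marker genes, and 0 were Ptprc-positive leukocytes in any library. Near-empty barcodes held 8309 and 8878 CPM of Peak1 in mutants and 5036 and 5299 CPM in controls.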

How the results depend on the processing

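Of 78 alternatives to shares and indices 4 changed sign, all in the share of Peak1-rich cells: 0.494 with the Peak1 split at 2%, 0.0683 with the hemoglobin split at 2%, and a range from -0.251 to 0.126 when 1 library was left out. Of 70 alternatives to counts of genes 49 were within 1.5 times the count given. Genes higher in all precursors numbered 138 in the same mix of 3 hemoglobin ranges, 45 in that of 4 states and 113 scaled to all UMIs. Genes lower numbered 8 with DESeq2, 8 with no filter, 54 with at least 6 UMIs and 3 markers, 29 with free RNA subtracted, 716 scaled to all UMIs, 46 scaled to UMIs outside hemoglobin and 23 in the mix of 4 states. With 1 library left out, 246 to 330 were higher and 14 to 24 lower in all precursors, 191 to 449 and 93 to 477 in Peak1-poor, 21 to 31 and 9 to 23 in Peak1-rich, and 125 to 245 and 99 to 164 in hemoglobin-rich cells. DESeq2 called 62 lower in Peak1-poor, 8 higher and 4 lower in Peak1-rich and 60 lower in hemoglobin-rich cells. The cause was not tested, other than that fewer libraries or other cell mixes entered by construction. Same-numbered libraries correlated at -0.122 in their deviations from the group means. This is a single value for 2 libraries per group, and it cannot show whether the replicate numbers pair the libraries. With the replicate block 277 genes were higher and 13 lower in all precursors. With crossed numbers 274 were higher and 12 lower. With 2 libraries per group no permutation p can pass 0.05.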

Other observations

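Histone genes, a group picked after the values were seen and not tested as a group, were 56 of the 5455 genes tested (1.03%) over all erythroid precursors, 52 of 3323 (1.56%) in hemoglobin-rich cells and 54 of 7962 (0.678%) in Peak1-poor cells. They made up 37 of the 280 genes called higher over all erythroid precursors and 27 of the 159 called higher in hemoglobin-rich cells, and 9 of the 118 called lower and 1 of the 250 called higher in Peak1-poor cells. DESeq2 called 39, 28 and 3 histone genes in these 3 comparisons, in either direction. In Peak1-rich cells 56 were tested and 0 called by edgeR or DESeq2, 14 having an unadjusted p under 0.05. Of 14 mitochondrially encoded genes tested in hemoglobin-rich cells 7 were called lower, beside 3.79% of all genes tested, led by mt-Nd3 (80.5 and 100.2 CPM in mutants and 590 and 369 CPM in controls).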
